A study of Bos taurus with 8 samples.

Results

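The platelet-derived growth factor (PDGF) genes were examined in single-cell preadipocyte clones from bovine intramuscular fat (IMF) and subcutaneous fat (SF). The 7 genes were taken by symbol from the deposited table of 18871 named genes, and all 7 were present. They are the ligand genes *PDGFA*, *PDGFB*, *PDGFC* and *PDGFD*, the receptor tyrosine kinase genes *PDGFRA* and *PDGFRB*, and *PDGFRL*, which encodes a receptor-like protein that lacks the kinase domain. RNA-seq covered 8 clones, 4 from IMF (IMF1 to IMF4) and 4 from SF (SF1 to SF4), grown from stromal vascular fraction (SVF) cells of adult male Angus-cross steers. Each clone descends from 1 cell, was picked for rapid growth and lipid accumulation, and came from its own SVF sample, so a group of clones is not a sample of all preadipocytes of a depot. Cells were collected in serum-containing growth medium before confluence according to the study's methods, whereas the deposited design text places adipogenic induction before sequencing. The comparison asks how the balance of PDGF ligands and receptors differs between preadipocytes of both depots.

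PDGF ligands are secreted dimers. The A and B chains are cut to their active form inside the cell, while the C and D chains leave the cell in a latent form and are activated outside it by proteases such as plasminogen activators. The alpha receptor binds the A, B and C chains, and the beta receptor binds the B and D chains. In fat and muscle, the alpha receptor is known as a mark of adipocyte and fibro-adipogenic progenitors and the beta receptor as a mark of mural and stromal cells, while the B chain is best known as a product of endothelial cells and platelets that recruits mural cells.

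The clones had 19654917 to 29308882 counts on named genes. In bulk RNA from a clone, fewer cells that express a gene and less RNA per cell cannot be told apart. The clones were labelled preadipocytes, and the collagen genes *COL1A1*, *COL1A2* and *COL3A1* carried most of the level of the 8 fibroblast markers (summed CPM, counts scaled to the library size, from 31517 to 33049 in IMF and from 53055 to 60832 in SF, with 0 of 8 markers higher and 3 lower in IMF, 0 higher also at an unadjusted p under 0.05 and with DESeq2). These 3 genes had means of 12372, 10428 and 8512 CPM in IMF, whereas the fibroblast marker *DPT* had 1.92. Of the adipocyte markers, 3 of 5 were analysed, and their summed level was low in both groups (from 11.5 to 14.2 CPM in IMF and from 3.50 to 5.01 CPM in SF, with 1 higher and 0 lower in IMF, and 1 lower, *PLIN1*, at an unadjusted p under 0.05 but 0 lower with DESeq2). The higher one was *FABP4*, a fatty acid binding protein gene of adipocytes and capillary endothelium, with 9.64 CPM in IMF and 0.178 in SF (adjusted p = 0.000787, edgeR), and its part in the *PDGFA* and *PDGFB* differences was not tested. Of the markers analysed, 2 of 8 mural genes were higher and 4 lower in IMF (2215 to 2478 CPM in IMF, 3248 to 11042 in SF), 1 of 4 macrophage genes was higher and 0 lower (11.5 to 28.6 CPM in IMF, 30.4 to 53.0 in SF, with 1 lower, *PTPRC*, at an unadjusted p under 0.05 and 1 lower with DESeq2), and 0 of 3 megakaryocyte genes passed (2.31 to 7.09 CPM in IMF, 2.10 to 3.57 in SF, with 1 higher at an unadjusted p under 0.05 and 1 with DESeq2). The endothelial and skeletal myoblast markers, which separated the groups, are given beside *PDGFB*.

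Calls needed both an adjusted p under 0.05 and a log2 fold change of 1 or more in size, from edgeR's quasi-likelihood test over 18339 genes. Of the 7 members, 2 were called, *PDGFA* and *PDGFB*, both higher in IMF. Across all genes tested, 8.82% were called, 4.78% higher and 4.04% lower in IMF (with scaling by total counts alone, 66.7% instead of 54.2% of the calls were higher). An adjusted p-value under 0.05, whatever the fold change, was found for 3 of the 7 members, the third being *PDGFRA*, against 25.8% of all genes (14.4% higher and 11.4% lower in IMF). The IMF and SF clones did not overlap in CPM in these 3 members, all with IMF above, against 32.1% of all genes (18.0% with IMF above and 14.1% with SF above).

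**Figure D1:**
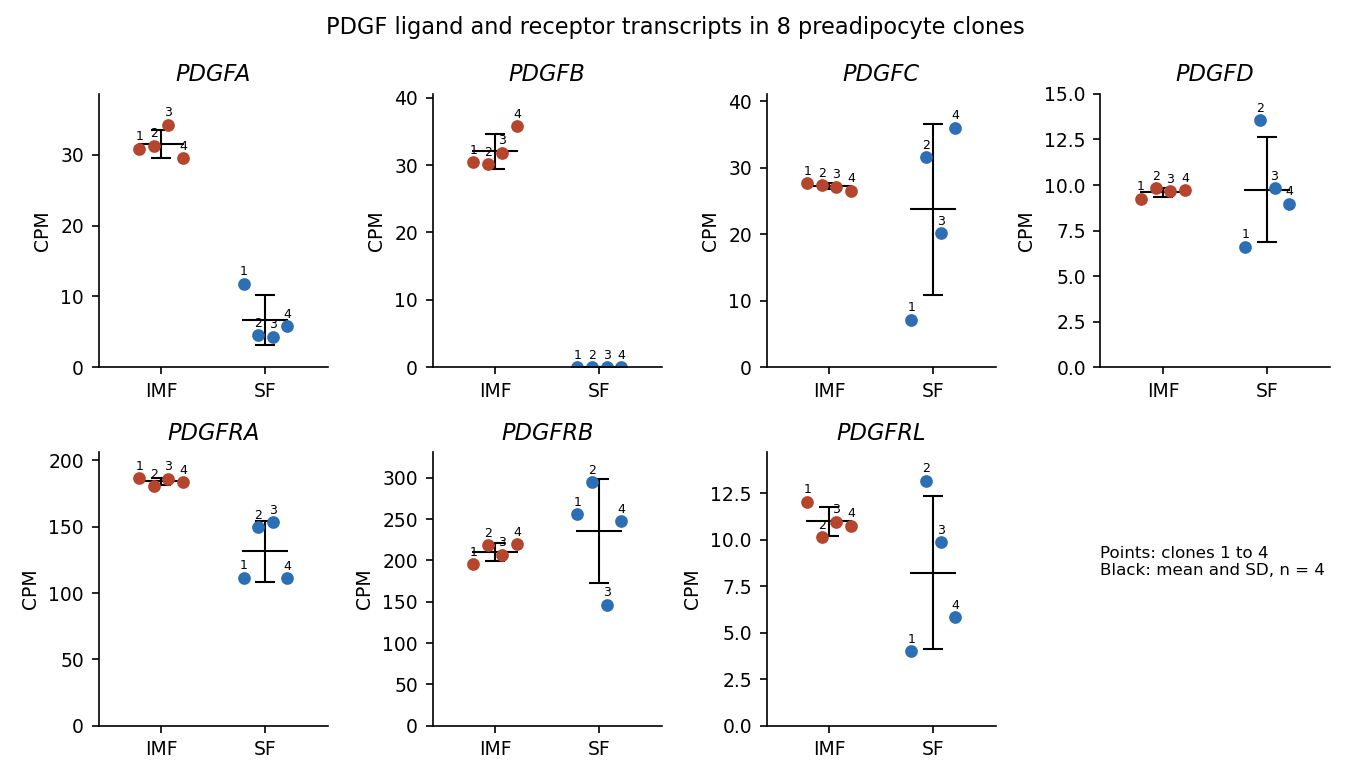
Level of each PDGF gene in each clone, in library-scaled counts (CPM, vertical axes, each starting at 0), for IMF (red) and SF (blue) clones numbered 1 to 4, with the mean and SD in black. *PDGFB* was at 0 in all 4 SF clones, and *PDGFA* was at 29.6 to 34.2 CPM in IMF and 4.30 to 11.8 CPM in SF.

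*PDGFB* (chromosome 5, 110665509 to 110695664 in ARS-UCD2.0) encodes the B chain, the ligand that binds both receptors. It had 634, 923, 703 and 753 counts in IMF1 to IMF4 and 0 counts in each SF clone. Its level in the IMF clones was 32.1 ± 2.62 CPM (SD, n = 4), from 30.2 in IMF2 to 35.8 in IMF4. A count of 0 allows up to 3 counts, or between 0.122 and 0.165 CPM, in an SF clone. Against that floor in each SF clone, *PDGFB* was at least 217-fold higher in IMF (adjusted p = 6.51e-06, edgeR's quasi-likelihood test). The span of *PDGFB* overlaps that of *LOC101906018* in RefSeq, so counts in the overlap are uncertain.

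Of the 12 endothelial markers, 11 moved with *PDGFB*. Their summed level was 209 to 260 CPM in IMF and 29.1 to 40.7 CPM in SF, and the 11 were called higher in IMF, among them *PECAM1*, *CDH5* and *TIE1*. *KDR* and *EMCN*, also among these markers, were at 0 in all 4 SF clones and at 12.2 and 6.89 CPM in IMF, while the junction gene *CLDN5* did not pass (36.9 CPM in IMF and 31.3 in SF, adjusted p = 0.492, edgeR). The 8 skeletal myoblast markers, all called higher, summed to 608 to 687 CPM in IMF and 0.951 to 31.7 CPM in SF. *MYOD1*, *MYOG* and *CHRNA1* were at 0 in all 4 SF clones. The part of either cell type in the *PDGFB* difference was not tested.

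*PDGFA* (chromosome 25, 42009812 to 42030408) encodes the A chain, which binds the alpha receptor alone. The IMF clones had 30.8, 31.3, 34.2 and 29.6 CPM, and the SF clones had 11.8, 4.55, 4.30 and 5.79 CPM. Every IMF clone was at least 29.6 CPM, and SF1 stood above the other SF clones without reaching the IMF range. *PDGFA* was 4.77-fold higher in IMF, a log2 fold change of 2.25 (standard error 0.31, 95% confidence interval 1.55 to 2.96, adjusted p = 0.00122, edgeR). Without SF1 the log2 fold change was 2.69. The 11 endothelial and 8 myoblast markers called above were higher in IMF, as *PDGFA* was, but did not all follow it within SF. SF1, the highest SF clone in *PDGFA*, had the fewest counts of *PECAM1* (2) and the most of *MYMK* (58) among the SF clones. The part of these markers was not tested. Its call held in each of 19 alternatives (adjusted p up to 0.0165, with glmTreat, which tests whether the log2 fold change exceeds 1).

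*PDGFC* (chromosome 17, 42226267 to 42479691) encodes a latent ligand of the alpha receptor. The IMF clones lay within 26.6 to 27.6 CPM, whereas the SF clones had 7.13, 31.6, 20.1 and 36.0 CPM. SF1 was the lowest clone and SF4 the highest, so that the IMF range fell inside the SF range. The log2 fold change was 0.20 (standard error 0.40, adjusted p = 0.762, edgeR), with a 95% interval from -0.72 to 1.12, which does not exclude a difference of 2-fold in favour of IMF. Without SF1 it was -0.10.

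*PDGFD* (chromosome 15, 4259437 to 4537973) encodes the latent ligand of the beta receptor. It had 9.26, 9.81, 9.66 and 9.71 CPM in IMF1 to IMF4 and 6.62, 13.6, 9.82 and 8.98 CPM in SF1 to SF4. SF1 was again the lowest clone and SF2 the highest. The log2 fold change was -0.02, with an interval from -0.47 to 0.43 (adjusted p = 0.954, edgeR). The span of *PDGFD* contains that of *DDI1* in RefSeq.

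*PDGFRA* (chromosome 6, 69723776 to 69771549), the alpha receptor gene, had 187, 181, 186 and 184 CPM in the IMF clones and 112, 150, 153 and 111 CPM in the SF clones. All IMF clones lay above all SF clones, with SF2 and SF3 nearest to them. The log2 fold change of 0.49 (95% interval 0.20 to 0.77, adjusted p = 0.0214, edgeR) was under the threshold of 1 over its whole interval. Its adjusted p was over 0.05 without IMF1 (0.0523), without IMF2 (0.0527) and without IMF3 (0.0654).

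*PDGFRB* (chromosome 7, 61473643 to 61511234), the beta receptor gene, was the most abundant member in CPM in the mean of either group. It had 196, 218, 207 and 219 CPM in IMF1 to IMF4 and 256, 294, 146 and 248 CPM in SF1 to SF4. SF1, SF2 and SF4 lay above all IMF clones, and SF3 lay below all of them. The log2 fold change was -0.17 (95% interval -0.61 to 0.27, adjusted p = 0.573, edgeR). Without SF3 it was -0.37, with an adjusted p of 0.0252, so 1 clone decided whether the beta receptor passed the adjusted p threshold.

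*PDGFRL* (chromosome 27, 19636203 to 19709829) had 10.1 to 12.0 CPM in the IMF clones, IMF2 being lowest and IMF1 highest, and 4.00, 13.2, 9.86 and 5.84 CPM in the SF clones. SF1, SF3 and SF4 were below every IMF clone, and SF2 was above them. The log2 fold change was 0.41 (95% interval -0.33 to 1.16, adjusted p = 0.397, edgeR), and it was 0.19 without SF1, 0.28 without SF4 and 0.73 without SF2.

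**Figure D2:**
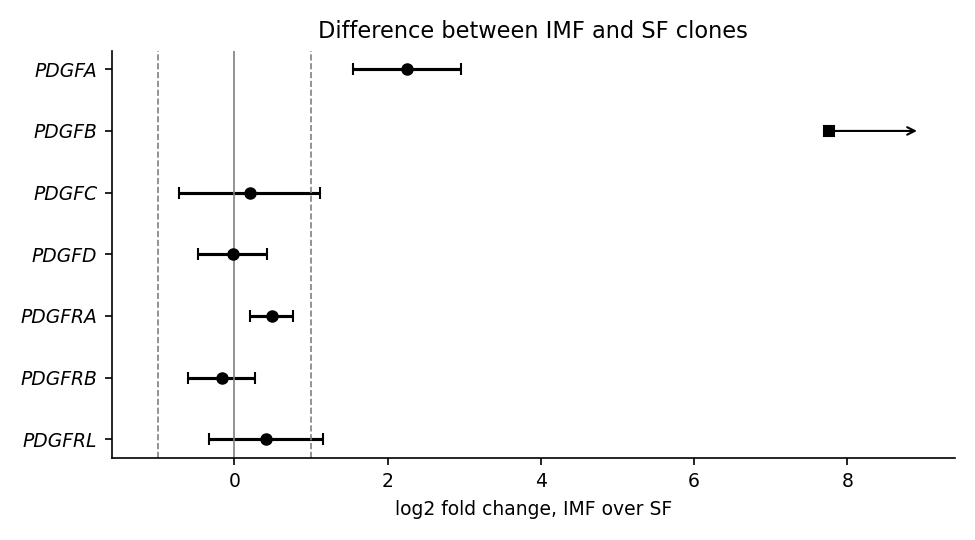
Log2 fold change of each PDGF gene, IMF over SF (horizontal axis), with 95% confidence intervals from the edgeR fit of 4 against 4 clones. The square with an arrow is the lower bound of *PDGFB* (217-fold), the dashed lines mark a log2 fold change of -1 and 1, and the interval of *PDGFA* (1.55 to 2.96) alone among the others lies wholly beyond them.

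The clones of both groups differed in how far they varied. Within IMF, the highest clone was between 1.03-fold (*PDGFRA*) and 1.19-fold (*PDGFB* and *PDGFRL*) above the lowest in each of the 7 genes. Within SF, it was 1.38-fold above the lowest for *PDGFRA*, 2.01-fold for *PDGFRB*, 2.74-fold for *PDGFA*, 3.29-fold for *PDGFRL* and 5.04-fold for *PDGFC*. The coefficient of variation was larger in SF in 6 of the 6 members with at least 100 counts on average in both groups, as it was in 74.7% of the 10948 genes at that level. *PDGFC* had a coefficient of variation of 1.69% in IMF and 54.5% in SF, and *PDGFA* had 6.27% and 53.3%. The medians over all such genes were 6.60% in IMF and 13.4% in SF.

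The extreme SF clone changed with the gene. SF1 had the most *PDGFA* and the least *PDGFC*, *PDGFD* and *PDGFRL* of the SF clones. SF2 had the most *PDGFD*, *PDGFRB* and *PDGFRL*, and SF3 had the most *PDGFRA* in CPM with the least *PDGFRB*. In TPM, SF2 was slightly above SF3 in *PDGFRA* (32.7 and 32.2). SF1 also had the most counts of the contractile genes *ACTA2* (126470, against 26590 to 72169 in the other SF clones) and *CNN1* (16341, against 4040 to 7110). Of the 8 mural markers, SF1 had the most counts among the SF clones in 5 (also *TAGLN*, *MYH11* and *MCAM*) and the fewest in the other 3, *CSPG4* (2378, against 3616 to 5990), *ABCC9* (3, against 20 to 143) and *HIGD1B* (40, against 41 to 54). These counts are not scaled to library size, and the margin in *HIGD1B* is too small to rank SF1 lowest once they are. The part of the mural markers in the ligand pattern was not tested.

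Levels were compared between genes as TPM, in which counts are divided by the deposited gene length. In the IMF clones *PDGFRB* came first (59.1 ± 2.30 TPM, SD, n = 4), followed by *PDGFRA* (37.5 ± 3.20 TPM), each above the next gene in 4 of 4 clones without overlap. *PDGFA* (14.9 ± 1.86 TPM), *PDGFB* (14.9 ± 1.22 TPM) and *PDGFC* (14.0 ± 1.14 TPM) overlapped, and their order was not kept in every clone. *PDGFRL* (11.8 ± 1.57 TPM) overlapped *PDGFC*, although it was the lower of both in 4 of 4 clones, and *PDGFD* (7.57 ± 0.448 TPM) was lowest in all 4 clones.

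In the SF clones *PDGFRB* (65.7 ± 19.4 TPM) and *PDGFRA* (26.6 ± 6.78 TPM) again came first in 4 of 4 clones. *PDGFC* (12.0 ± 6.34 TPM), *PDGFRL* (8.96 ± 5.11 TPM) and *PDGFD* (7.68 ± 2.82 TPM) overlapped, and *PDGFA* (3.06 ± 1.58 TPM) overlapped *PDGFD*. Among all genes tested, *PDGFA* lay at percentile 72.0 of TPM in IMF and 40.3 in SF, while *PDGFC* lay at 70.7 and 67.3 and *PDGFRB* at 91.8 and 92.7.

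**Figure D3:**
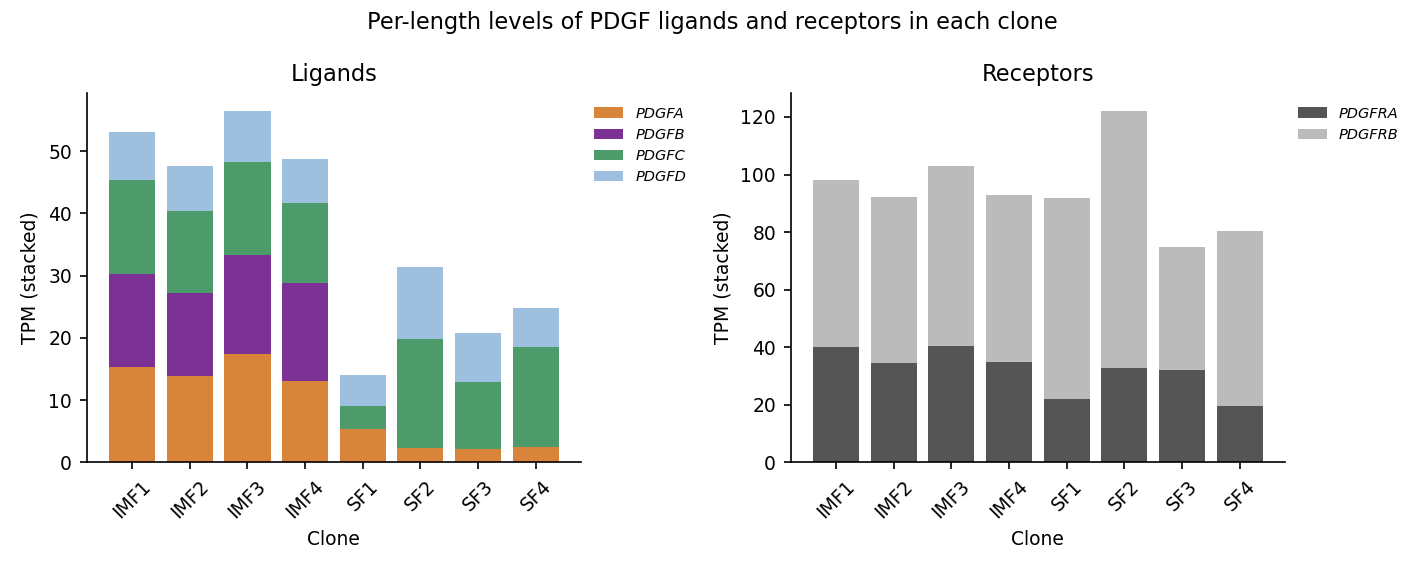
Per-length level (TPM, vertical axes) of the 4 ligand genes (left) and of *PDGFRA* and *PDGFRB* (right), stacked in each clone. The ligand bars reach 47.7 to 56.4 TPM in IMF and 14.0 to 31.4 TPM in SF, whereas the receptor bars of both groups overlap (92.3 to 103 TPM in IMF and 74.9 to 122 TPM in SF).

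The ligand pool of the IMF clones held *PDGFA*, *PDGFB* and *PDGFC* in nearly equal parts. By TPM, *PDGFA* made up 26.9% to 30.8% of the 4 ligands, *PDGFB* 27.7% to 32.1%, *PDGFC* 26.3% to 28.3% and *PDGFD* 14.4% to 15.2%. The ratio of *PDGFA* to *PDGFB* was 1.00 ± 0.113 in these clones (SD, n = 4). In SF2, SF3 and SF4, *PDGFC* made up 51.5% to 65.4% of the ligands, *PDGFD* 24.9% to 38.4% and *PDGFA* 7.40% to 10.1%. SF1 differed, with 38.6% *PDGFA*, 25.4% *PDGFC* and 36.0% *PDGFD*.

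The summed ligands were 0.532 ± 0.0141 of the summed TPM of *PDGFRA* and *PDGFRB* in IMF and 0.249 ± 0.0672 in SF (SD, n = 4 each). The IMF clones ranged from 0.517 to 0.547 and the SF clones from 0.153 in SF1 to 0.307 in SF4, with no overlap. Without dividing by length, the means were 0.254 and 0.109. A further pair of sums, chosen after the values were seen, followed the binding rules. *PDGFA*, *PDGFB* and *PDGFC* together were 1.14 to 1.19 times the level of *PDGFRA* in IMF and 0.399 to 0.944 times in SF. *PDGFB* and *PDGFD* together were 0.354 to 0.394 times the level of *PDGFRB* in IMF and 0.0724 to 0.187 times in SF. These sums contain *PDGFA* and *PDGFB*, whose differences are given above, and were not tested.

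**Figure D4:**
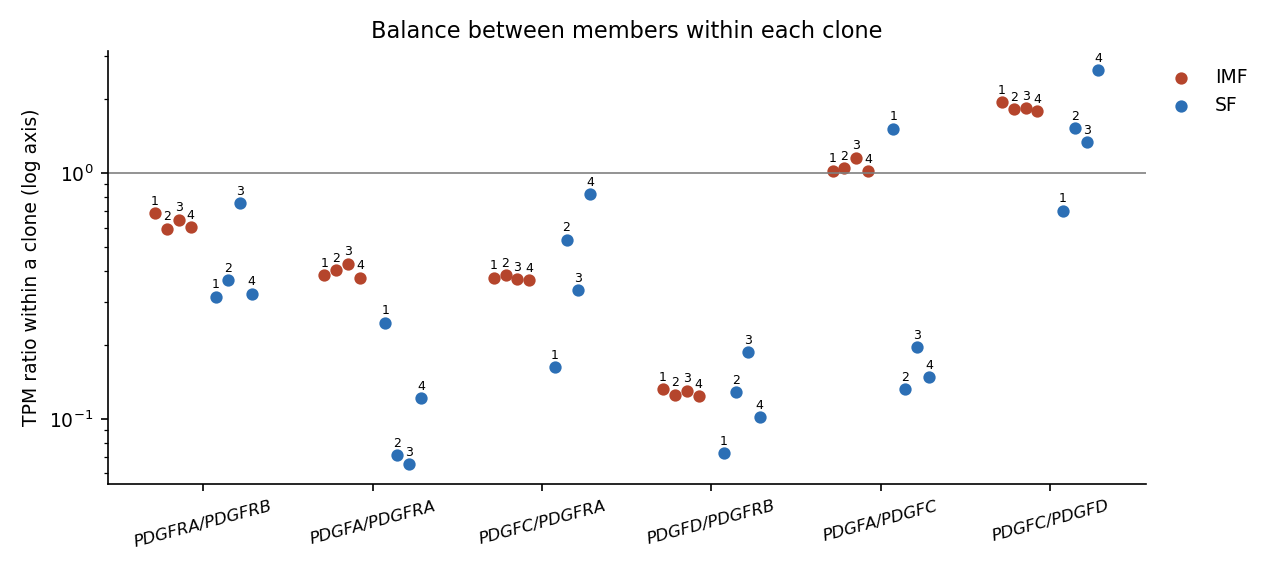
TPM ratio of a pair of PDGF genes within each clone (vertical axis, log scale), for IMF (red) and SF (blue) clones numbered 1 to 4, with a grey line at 1. Of the 6 ratios drawn, *PDGFA* to *PDGFRA* alone separates the groups, SF3 lies above the IMF clones in *PDGFRA* to *PDGFRB*, and SF1 lies above them in *PDGFA* to *PDGFC*.

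Ratios between single members are free of library scaling, and 6 of them were tested by an exact two-sided permutation test of the log2 ratio over the 70 splits of the 8 clones, in which 0.0286 is the smallest possible p. *PDGFA* relative to *PDGFRA* was 0.376 to 0.428 in IMF and 0.0654 to 0.247 in SF, a log2 difference of 1.87 (exact p = 0.0286, adjusted over the 6 ratios 0.171), lower in 4 of 4 SF clones. The ratio of *PDGFRA* to *PDGFRB* was 0.687, 0.596, 0.648 and 0.602 in IMF1 to IMF4 and 0.314, 0.366, 0.753 and 0.323 in SF1 to SF4. The log2 difference was 0.63 (exact p = 0.143, adjusted 0.286) and became 0.92 without SF3, the SF clone that lay above the IMF range. *PDGFA* relative to *PDGFC* was 1.02 to 1.16 in IMF and 0.132 to 0.196 in SF2, SF3 and SF4, but 1.52 in SF1 (log2 difference 1.94, exact p = 0.143, adjusted 0.286, and 2.76 without SF1).

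*PDGFC* relative to *PDGFRA* was 0.367 to 0.385 in IMF and 0.162 to 0.822 in SF (exact p = 1, adjusted 1), and *PDGFD* relative to *PDGFRB* was 0.124 to 0.132 and 0.0724 to 0.187 (exact p = 0.657, adjusted 0.789). *PDGFC* relative to *PDGFD* was 1.79 to 1.95 and 0.705 to 2.62 (exact p = 0.429, adjusted 0.643). *PDGFB* relative to *PDGFRB* was 0.229 to 0.270 in IMF and 0 in SF, and was not tested because *PDGFB* had no counts in SF. None of the 6 adjusted p-values was under 0.05, which with 4 against 4 clones would have needed at least 4 of the 6 ratios to reach the smallest possible p.

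Among proteins that activate or bind PDGF ligands, 13 of 15 listed genes were tested, of which 1 was called higher and 1 lower in IMF. *PLAU*, the urokinase gene, whose protease can activate the D chain, stood at 82.4 ± 1.52 CPM in IMF, against 12.8 ± 6.00 in SF (SD, n = 4 each, log2 fold change 2.69, adjusted p = 0.000611, edgeR). *PLAT*, the tissue plasminogen activator gene, whose protease can activate the C chain, stood at 126 CPM in IMF, against 101 in SF (adjusted p = 0.44). *LRP1*, the gene of an endocytic receptor that acts with the beta receptor, stood at 2241 ± 119 CPM in IMF, against 5295 ± 653 in SF (log2 fold change -1.24, adjusted p = 0.000281). *NRP1*, a neuropilin gene, was lower in IMF by less than the fold threshold (log2 fold change -0.50, adjusted p = 0.0289). The median log2 fold change of the 13 genes was -0.38, beside -0.03 over all genes tested. Of all genes tested, 4.78% were called higher and 4.04% lower in IMF.

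Of 26 genes of proteins that carry the receptor signal, 1 was called higher and 0 lower in IMF (2 lower at an unadjusted p under 0.05, 0 with DESeq2), and their median log2 fold change was -0.08. Among all genes tested, the shares called were 4.78% higher and 4.04% lower. *PIK3CB*, a catalytic subunit of phosphoinositide 3-kinase, stood at 6.91 ± 0.653 CPM in IMF, against 2.43 ± 0.877 in SF (log2 fold change 1.50, adjusted p = 0.00396, edgeR). The regulatory subunit gene *PIK3R1* was lower (-0.70, adjusted p = 0.0368), and the kinase gene *YES1* (0.48) and the transcription factor gene *STAT3* (0.24) were higher by less than the threshold. The adaptor gene *GRB2* (60.8 and 61.4 CPM) and the phosphatase gene *PTPN11* (176 and 191 CPM) did not pass (adjusted p = 0.937 and 0.263). The list was called in 2 genes with limma-voom and without SF1, where *NCK2* was added.

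Of 16 genes that restrain receptor tyrosine kinase signals, 2 were called higher and 0 lower in IMF (1 lower at an unadjusted p under 0.05, 0 with DESeq2). They were *DUSP4* (1.73 ± 0.264 and 0.280 ± 0.141 CPM, log2 fold change 2.63, adjusted p = 0.00293, edgeR) and *DUSP5* (107 to 172 counts in IMF and 39 to 63 in SF, log2 fold change 1.07, adjusted p = 0.00569), which encode phosphatases of MAP kinases. *DUSP4* had 35 to 45 counts in IMF and 3 to 8 in SF, near the floor of 3 counts. Another 4 genes, which made 6 of the 16 with an adjusted p under 0.05, were higher in IMF by less than the fold threshold, among them the ubiquitin ligase gene *CBLB* (0.47), the Sprouty gene *SPRY1* (0.75) and the phosphatase gene *ACP1* (0.67). The median log2 fold change was 0.38. Over all genes tested, 4.78% were called higher and 4.04% lower in IMF. At an adjusted p under 0.05 alone, the shares of all genes were 14.4% higher and 11.4% lower. *DUSP5* was not called without IMF3, SF2 or SF3, which left 1 gene, and *SPRY4* was added without SF4.

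Of 20 genes known to be induced by PDGF in stromal cells, and by many other signals, 3 were called higher and 1 lower in IMF. *CCL2*, a chemokine gene, stood at 25.9 ± 2.43 CPM in IMF, against 6.64 ± 2.59 in SF (log2 fold change 1.96, adjusted p = 0.00075, edgeR). The immediate early gene *EGR1* had 12.2 ± 0.652 and 4.82 ± 1.65 CPM (log2 fold change 1.34), and *MYC* had 74.7 ± 3.28 and 32.2 ± 10.9 CPM (1.21). *CCND1*, the cyclin D1 gene, went the other way, with 53.1 ± 4.77 and 114 ± 46.9 CPM (-1.10, adjusted p = 0.0175). *FOS* (4.44 and 8.96 CPM, adjusted p = 0.16) and *JUN* (81.1 and 59.2 CPM, adjusted p = 0.0878) did not pass, while *JUNB* (log2 fold change 0.68, adjusted p = 0.0011) and *IER2* (0.44, adjusted p = 0.00565) were higher in IMF by less than the fold threshold. The median of the list was -0.04. Beside these calls, 4.78% of all genes tested were called higher and 4.04% lower in IMF. *MYC*, higher in IMF, was not called without SF2, where *FOS*, lower in IMF, was called instead. *CCND1* was not called without SF4 or with total counts alone.

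**Figure D5:**
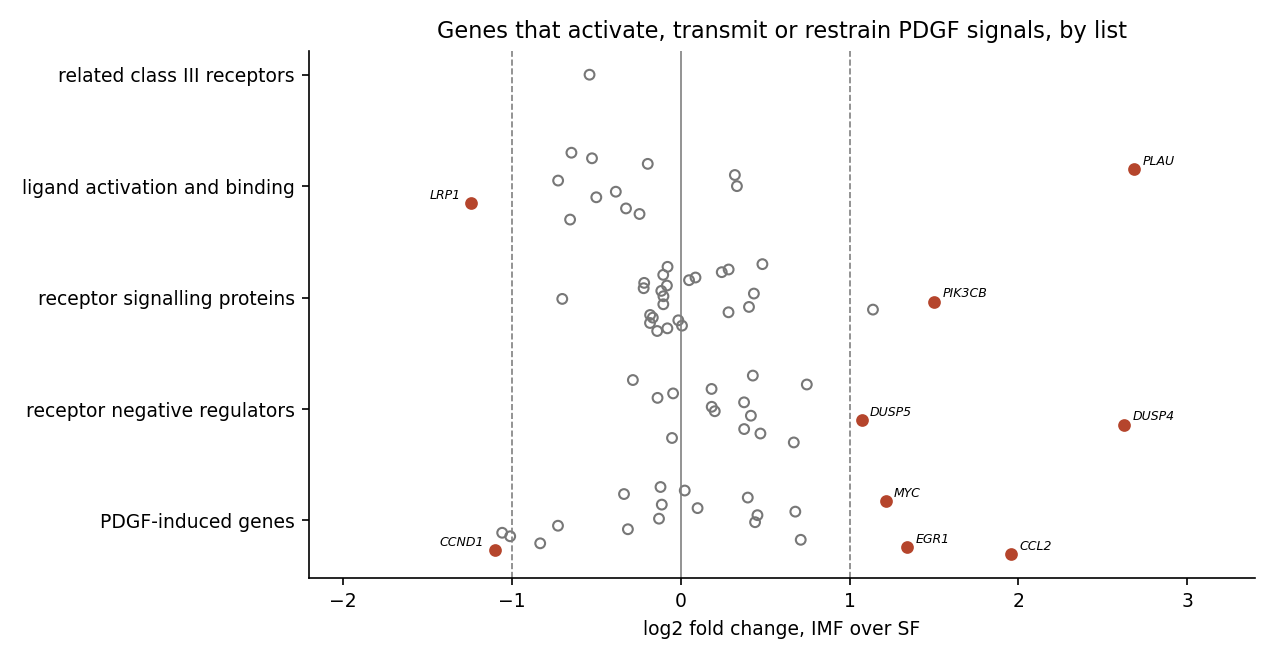
Log2 fold change (horizontal axis, IMF over SF) of each tested gene in the lists tied to PDGF signalling, 1 circle per gene, with called genes filled and named and dashed lines at -1 and 1. Most genes lie within the dashed lines, and called genes in both directions appear in the list of ligand activation and in that of PDGF-induced genes.

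Of the related class III receptor genes, *FLT3* was analysed and was low in every clone, with 10 to 20 counts in an IMF clone and 8 to 23 in an SF clone (log2 fold change -0.54, adjusted p = 0.454, edgeR). *KIT* and *CSF1R* were not analysed here.

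The genes whose pattern over the 8 clones was most like that of a member were found among 13022 others, by the root mean square difference of log2 CPM centred on each gene's mean. For *PDGFB* they were *CHRNG* (0.16), a subunit of the fetal muscle acetylcholine receptor, *MYOG* (0.25), a myogenic transcription factor, and *SELE* (0.29), the endothelial E-selectin gene, all of them at 0 CPM in SF. As *PDGFB* was also at 0 there, the SF values of all 4 genes come from the prior count alone. The order therefore reflects mainly the level in IMF, which was 38.1, 40.7 and 22.4 CPM, beside 32.1 CPM for *PDGFB*. For *PDGFA* they were *ACVRL1* (0.20), which encodes a BMP receptor of endothelial cells, *ABCA9* (0.24) and *AOC3* (0.25). For *PDGFC* the nearest was *ADAMTS5* (0.13), an aggrecanase gene, followed by *PRRT2* (0.16) and *DOPEY2* (0.19).

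For *PDGFRA* the nearest genes were *RRM1* (0.06), a subunit of ribonucleotide reductase, *WDFY1* (0.07) and the kinase gene *MELK* (0.07). For *PDGFRB* they were *ARHGAP6* (0.08), *GDAP1* (0.12) and *TRERF1* (0.12), for *PDGFD* *SH3PXD2B* (0.06), *GPRC5B* (0.07) and *FAM21A* (0.07), and for *PDGFRL* *LRRN2* (0.17), *CIART* (0.18) and *SASH1* (0.18). No member was among the 3 nearest genes of another member.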

How the data were processed

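Raw counts per gene and clone were deposited by the authors, who trimmed reads with Trimmomatic 0.39 and counted them on genes with featureCounts 2.0.2. The paper names HISAT2 and ARS-UCD2.0, whereas the submitters' processing notes list STAR 2.7.11a, so the aligner is uncertain. The paper describes non-stranded libraries and the labels a dUTP protocol. Gene lengths deposited in the same table served for TPM. Deposited group means and the authors' DESeq2 results were not used. A row without a gene name (0.0148% to 0.0209% of counts) was left out.

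The gene-wise test was that of edgeR 4.0.16, run under R 4.3.3 (TMM, two-sided quasi-likelihood test, Benjamini-Hochberg adjustment) over genes whose 8 clones summed to 20 counts or more. CPM used TMM-normalized library sizes. A floor of 3 counts covers counting error only. Ratios used 0.5 added counts, and likeness used a prior count of 2. Each clone comes from its own SVF sample, but the labels name 5 steers and the paper a different number, both below the 8 clones, so some clones shared an animal. Which ones is not given in the sources used here, and the tests treat the clones as independent. Python 3.11.15 was used for ratios and figures.

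Named genes were all members, up to 5 called genes per list and direction with the highest mean, the class III receptors, and, for each member, the 3 nearest genes of at least 1 CPM in a group, leaving out symbols that start with LOC. Genes given as not passing (*PLAT*, *GRB2*, *PTPN11*, *FOS*, *JUN*), genes with an adjusted p under 0.05 alone, *NCK2*, *SPRY4* and the markers named were chosen after their values were seen. The members and lists were chosen with earlier results of these data known. Gene positions are from RefSeq for ARS-UCD2.0. Alternatives were DESeq2 1.42.0, limma-voom (limma 3.58.1), other size factors, other filters, a prior count of 2, robust dispersion, glmTreat with a fold limit of 2, the clone number as a block, other added counts, CPM, and leaving out each clone.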

Additional observations from a re-analysis of the deposited data

Results flagged for a closer look

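In 5 of 45 groups of 4 values examined, 1 clone lay apart from the other clones of its group, its gap to the nearest being larger, relative to the group's range, than Dixon's critical value. Chance alone gives such a gap in about 1 in 20 groups, and the measures share genes. SF3 had a *PDGFRA* to *PDGFRB* TPM ratio of 0.753, against 0.314 to 0.366 in the other SF clones, and a *PDGFRA* share of both receptors of 43.0%, against 23.9% to 26.8%. SF1 had a *PDGFA* to *PDGFC* TPM ratio of 1.52, against 0.132 to 0.196, and a *PDGFA* share of the ligands of 38.6%, against 7.40% to 10.1%. IMF4 had a *PDGFB* share of the ligands of 32.1%, against 27.7% to 28.2% in the other IMF clones.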

How the results depend on the processing

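*PDGFA* and *PDGFB* were the 2 members past both thresholds in all 19 alternatives of the fit. The number with an adjusted p under 0.05 ranged from 2 to 4 with 1 clone left out, and *PDGFRA* lost it also with glmTreat, which tests whether the log2 fold change exceeds 1. The log2 fold change of *PDGFD* turned to 0.12 with total counts alone, where the median of all genes moved from -0.03 to 0.12, and to 0.021 with limma-voom. With 1 clone left out, it ranged from -0.17 to 0.18 for *PDGFD*, from -0.10 to 0.47 for *PDGFC*, from 0.19 to 0.73 for *PDGFRL* and from -0.37 to -0.04 for *PDGFRB*. With glmTreat, 631 genes passed in place of 1618, with 1 gene left for ligand activation, 0 for signalling (1 at an unadjusted p under 0.05), 1 for the negative regulators and 1 for the PDGF-induced genes. Limma-voom called 2 signalling genes. With 1 clone left out, signalling ranged from 1 to 2 genes, the negative regulators from 1 to 3, and all genes from 1332 to 1643. With CPM in place of TPM, the ligand to receptor ratio was 0.254 in IMF and 0.109 in SF, and the *PDGFRA* share of the receptors in IMF was 46.8% in place of 38.7%. The cause of these changes was not tested.

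Fitting clone number as a replicate block gave 1489 genes and 2 members past both thresholds, and *PDGFD* turned to 0.021. No other direction or call of a member changed. The deviations of IMF and SF clones with the same number from their group means correlated at -0.0093 to 0.139, so the numbers were not taken as pairs. Of the 8 clones, 4 correlated best with the clone of their own number. Paired tests of the ratios cannot pass 0.05 with 4 pairs.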
